A study of Mus musculus with 2 samples.

Results

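The genes described here are the 3 LGR receptors of the R-spondins, *Lgr4*, *Lgr5* and *Lgr6*, and the 4 R-spondin ligands, *Rspo1*, *Rspo2*, *Rspo3* and *Rspo4*. The family was taken by gene name with all of its probes, which gave 9 of the 39429 probes on the array and 7 of its 29924 gene names. Ureters of wildtype NMRI mouse pups were dissected at P0, the day of birth, and kept for 18 h in culture with 5 µM IWP-2 or with DMSO as the solvent control. IWP-2 inhibits PORCN, the acyltransferase that WNT ligands need for their secretion, so the comparison asked which transcripts depend on WNT signaling at that age. RNA was compared on 2 arrays, each with a control pool and an IWP-2 pool of 5 or 6 ureters in its 2 channels. Replicate 1 held pools from females with IWP-2 in the red channel, and replicate 2 held pools from males with IWP-2 in the green channel, so sex, pool and dye orientation cannot be told apart.

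R-spondins are secreted proteins that make cells more responsive to WNT ligands. They bind LGR4, LGR5 or LGR6 together with the membrane ubiquitin ligases RNF43 and ZNRF3, which otherwise remove Frizzled receptors from the cell surface, and in this complex the ligases no longer do so. *Lgr5* is itself a target gene of canonical WNT signaling and is best known as a marker of epithelial stem cells, for example in the intestine. *Lgr4* is more broadly expressed, and *Rspo3* is often made by mesenchymal cells.

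*Lgr5* fell 8.87-fold with IWP-2 (mean of 2 arrays), and it was the only gene of the family that passed the test. The mean log2 ratio of IWP-2 over control was −0.01 for *Lgr4* and −0.13 for *Lgr6*. Among the ligands, *Rspo1* (mean −0.42) and *Rspo3* (−0.47) had ratios below 0 and *Rspo2* (0.39) had ratios above 0 in both arrays, and none of the 3 passed the test after adjustment. *Rspo4* was not well above background in any pool.

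Of the 9 probes, 6 were tested, 1 for each gene but *Rspo4*, because most of their spots lay well above the local background in the control or the treated channels of both arrays. With limma and Benjamini-Hochberg adjustment at 0.05, 1 of these 6 was lower and 0 were higher, against a background of 0.179% of the 26849 tested probes lower and 0.0223% higher. At an unadjusted p under 0.05, 3 of the 6 were lower and 1 was higher, where 5.62% of all tested probes were lower and 6.67% higher. The ratio lay below 0 in both arrays for 3 of the 6, where 28.1% of all tested probes did so, and above 0 in both for 1 of the 6, where 28.4% did. The median log2 ratio of the 6 was −0.28 and that of all tested probes −0.002. Each ratio was taken within an array, and the 2 pairs of pools leave 1 residual degree of freedom per probe. Limma therefore drew the spread of each probe toward a prior spread estimated over all tested probes. The SE, confidence intervals and p-values rest on this moderated spread, not on the 2 ratios of a probe alone. For *Lgr4*, the SD between the arrays was 0.024 and the SE 0.0725. With whole ureters, fewer cells of a type and less RNA per cell cannot be told apart.

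**Figure D1:**
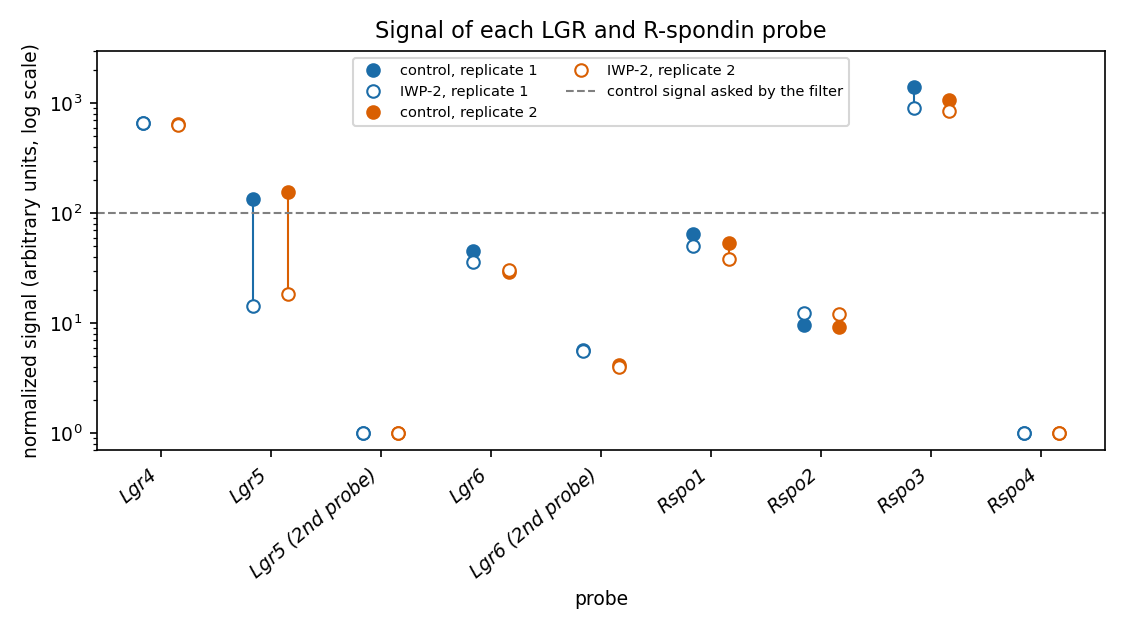
Normalized signal (arbitrary units, log scale) of each probe of the LGR receptors and R-spondins in the control (filled) and IWP-2 (open) pool of replicate 1 (blue) and replicate 2 (orange), with the control signal of 100 that the study's filter asks for as a dashed line. The *Lgr5* probe drops from 135 and 157 in the controls to 14.5 and 18.6 with IWP-2, whereas the probes of *Rspo4* and the other *Lgr5* probe stay at the floor of 1; heights of different probes are not comparable.

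*Lgr5* was read by probes at 2 places. The probe that gave a signal lies on the minus strand of mm9 at chr10:114887403-114887462, and the other lies 13283 bases from it, at chr10:114900686-114900745, and is annotated to a different transcript. The first 30 of the 60 bases of each are shown because the result on *Lgr5* rests on the former alone.

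Lgr5, probe with signal: catgtaaatacgtagtgcttgtaaatagat

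Lgr5, probe without signal: acctctagtgcttatatagaaacttgtgtg

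In replicate 1 the *Lgr5* signal was 135 in the control pool and 14.5 with IWP-2, and in replicate 2 it was 157 in the control pool and 18.6 with IWP-2. Both treated pools were far below both control pools, and all 4 values came from spots well above background. Replicate 1 gave a log2 ratio of −3.22 and replicate 2 one of −3.08, which are 9.31-fold and 8.46-fold decreases. The mean was −3.15 (SE 0.0794, 95% confidence interval −3.36 to −2.93, limma adjusted p = 0.00479). Single spots ranged from −3.283 to −3.19 in replicate 1 and from −3.168 to −3.003 in replicate 2. A lower mean ratio was found for 8 tested probes, of which 5 had treated signals well above background in both arrays, and a smaller p for 5, of which 3 had such signals. The decrease also passed the study's filter, which asks for a control signal above 100 and at least a 1.5-fold change in each array; 0.323% of the 17961 probes with such a control signal passed it in the lower direction and 0.0779% in the higher. The *Lgr5* decrease did not reach the threshold when the 4 channels were fitted as separate samples after quantile normalization between arrays (limma adjusted p = 0.0661). Nor did it when all dim probes were kept (0.178), or when signals under 15 were set to 15 (0.445), the floor first planned. Its mean log2 ratio ranged from −3.22 to −2.35 over all alternatives.

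The other *Lgr5* probe stood at the floor of 1 in all 4 channels, with none of its spots well above background. It gives no ratio and so neither repeats nor contradicts the decrease.

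The genes nearest to *Lgr5* by the Euclidean distance in the log2 ratios of the 2 arrays were *Fgf20*, 2700046A07Rik, *Acnat2*, *Mc5r* and *Gabrb1*. Their order is not a measured one. The nearest probes of all but *Mc5r* had treated signals not well above background and give only bounds. For each bound, a treated signal under the lowest of any probe well above background in that channel was raised to it. Signals after quantile normalization between arrays were used. A probe not well above background can read higher than that lowest signal, so the bounds are not strict lower limits. *Fgf20*, a fibroblast growth factor, had a bound of 3.56-fold lower (limma adjusted p = 0.00556) and *Gabrb1*, a GABA receptor subunit, one of 4.9-fold lower (adjusted p = 0.00479). The bounds were 3.93-fold for this probe of 2700046A07Rik and 3.47-fold for *Acnat2* (adjusted p = 0.00479 for each). The adjusted p-values given beside bounds are those of the fitted ratios, not of the bounds. Another probe of 2700046A07Rik was well above background in all 4 channels, with log2 ratios of −2.33 and −2.45 (limma adjusted p = 0.00749).

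Among probes well above background in all 4 channels, a restriction made after their values were seen, *Mc5r*, *Cyp2e1* and *Ibsp* lay nearest to *Lgr5*. *Mc5r*, which encodes a melanocortin receptor, had signals of 154 and 120 in the controls of replicates 1 and 2 and of 16 and 19.9 with IWP-2, with a mean log2 ratio of −2.93 (limma adjusted p = 0.0409) at a distance of 0.49. *Cyp2e1*, a cytochrome P450, had a mean of −3.57 (adjusted p = 0.00479) at a distance of 0.607. *Ibsp*, which encodes a bone sialoprotein, had a mean of −3.64 (adjusted p = 0.0168) at a distance of 0.75.

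*Lgr4*, the broadly expressed receptor of the family, was read by a single probe on the plus strand at chr2:109853567-109853626. Its signal was 662 in the control and 663 with IWP-2 in replicate 1, and 651 and 637 in replicate 2. The control and treated pools overlapped. The log2 ratios were 0.00 and −0.03 and their mean −0.01 (SE 0.0725, limma adjusted p = 0.987). The 95% confidence interval, −0.21 to 0.18, leaves room for a small change in either direction.

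*Lgr6* had 2 probes, both with low signals, of which 1 was tested. The tested probe, on the minus strand at chr1:136880538-136880597, gave 45.2 in the control and 36.3 with IWP-2 in replicate 1, and 29.4 and 30.3 in replicate 2. The pools overlapped, and the arrays differed in direction, with log2 ratios of −0.32 and 0.05. In replicate 1 all 4 spots were below 0, from −0.368 to −0.279, whereas in replicate 2 the spots ranged from −0.018 to 0.206. The mean of −0.13 (SE 0.114, 95% confidence interval −0.44 to 0.17) did not pass the test (limma adjusted p = 0.774). The other *Lgr6* probe, 3244 bases away at chr1:136883782-136883841, read 5.69 and 5.58 in replicate 1 and 4.19 and 3.97 in replicate 2. Between 25% and 75% of its spots were well above background in a channel, and it was not tested.

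**Figure D2:**
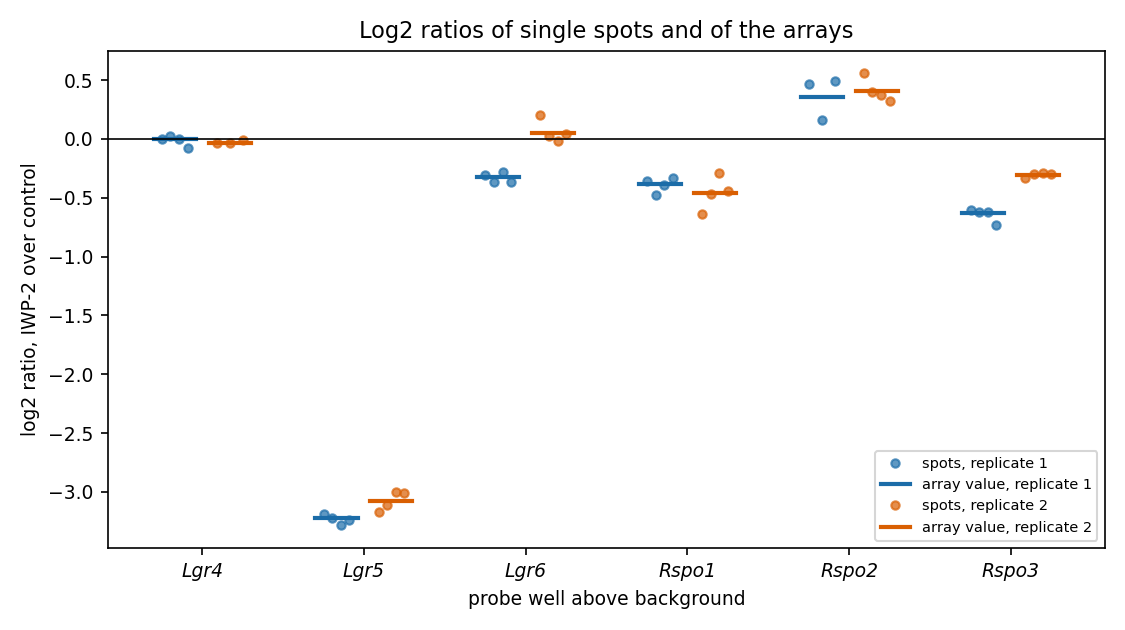
Log2 ratio of IWP-2 over control for the 6 tested probes, with each kept spot as a point and the value of the array as a bar, in replicate 1 (blue) and replicate 2 (orange). The *Lgr5* spots lie between −3.283 and −3.003, all *Rspo1* and *Rspo3* spots lie below 0, all *Rspo2* spots lie above 0, and all 4 *Lgr6* spots of replicate 1 but only 1 of replicate 2 lie below 0.

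For the ligands, each gene was read by a single probe. The first 30 of their 60 bases are shown for the 3 R-spondins that gave a signal, since each value below stands on that oligonucleotide alone.

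Rspo1: ccgtggtacacgtcacggatgacctgactt

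Rspo2: ccttaggtcagtttgtccttagattatgaa

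Rspo3: ggatactactttctaacaaggtgtatctag

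*Rspo3* maps to the minus strand at chr10:29172930-29172989. Its signal was 1400 in the control and 903 with IWP-2 in replicate 1, and 1060 in the control and 853 with IWP-2 in replicate 2. Both treated pools lay below both control pools. Replicate 1 gave a log2 ratio of −0.63 and replicate 2 one of −0.31, so the arrays differed in size by 0.32 although the spots within an array were tight, with an SD of 0.0606 in replicate 1 and of 0.0203 in replicate 2. The SD between the arrays was 0.227, against a median of 0.0733 for tested probes with a mean signal above 100. The mean of −0.47 (SE 0.106, 95% confidence interval −0.76 to −0.18) did not pass the test (limma adjusted p = 0.25). It did pass, at an adjusted p of 0.0248, when only probes with a signal above 100 were fitted with a prior spread that follows the signal, a setting chosen after seeing the data. That setting called 231 of the 18403 probes it tested lower and 221 higher. *Rspo3* passed the fold filter in replicate 1 and not in replicate 2.

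*Rspo1* maps to the plus strand at chr4:124686270-124686329. The signal was 65 in the control and 50.1 with IWP-2 in replicate 1, and 53.4 in the control and 38.8 with IWP-2 in replicate 2. The treated pools were lower than both controls, the nearest values being 50.1 and 53.4. The log2 ratios of −0.38 and −0.46 were close to each other, with an SD of 0.06 between the arrays against a median of 0.117 for tested probes with a mean signal from 20 to 100. The mean was −0.42 (SE 0.0749, 95% confidence interval −0.62 to −0.21, limma adjusted p = 0.198). Over the alternatives the lowest adjusted p of *Rspo1* was 0.119.

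*Rspo2* had ratios of the opposite sign. Its probe, on the minus strand at chr15:42852727-42852786, gave 9.56 in the control and 12.3 with IWP-2 in replicate 1, and 9.17 and 12.2 in replicate 2. These signals were low but well above background, and both treated pools lay above both controls. The log2 ratios were 0.36 and 0.41 and their mean 0.39 (SE 0.073, 95% confidence interval 0.19 to 0.58, limma adjusted p = 0.211). The SD between the arrays was 0.034, against a median of 0.162 for tested probes with a mean signal under 20. The lowest adjusted p of *Rspo2* over the alternatives was 0.163, and with signals under 15 set to 15 its ratio was 0.

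*Rspo4*, on chromosome 2 at chr2:151700345-151700404, was at about the floor of 1 in all 4 channels, and none of the levels was well above background. No fold change is given for it.

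**Figure D3:**
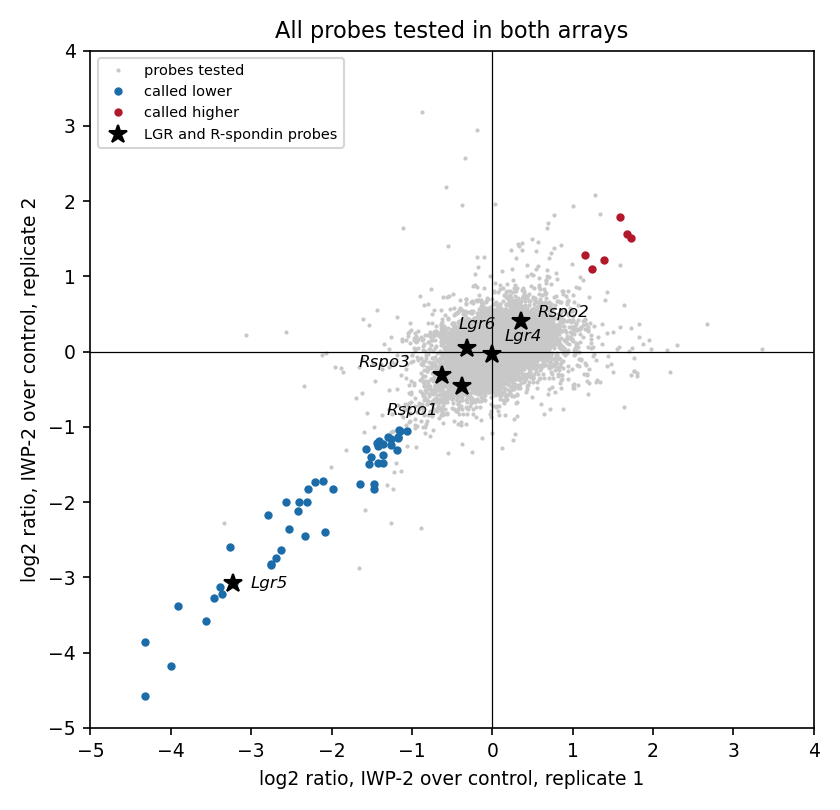
Log2 ratio of IWP-2 over control in replicate 1 (horizontal) and replicate 2 (vertical) for the 26849 tested probes (grey), the 48 called lower (blue), the 6 called higher (red) and the 6 tested LGR and R-spondin probes (stars). *Lgr5* lies among the probes with the lowest ratios in both arrays, and the other 5 lie nearer to 0. Counted from the lowest mean ratio, *Rspo3* ranks 428, *Rspo1* 547 and *Rspo2* 25992 of the 26849.

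The partners of the R-spondins and LGR receptors were taken as a list of 25 genes with the ligases, Frizzled and LRP co-receptors, syndecans, *Gpc3*, *Iqgap1*, Dishevelled genes and the LGR ligands *Ndp* and *Tnfsf11*. All 25 were tested; 0 were called lower and 0 higher by limma, with 6 lower and 1 higher at an unadjusted p under 0.05 (5.62% and 6.67% of all tested probes). Their median log2 ratio was −0.04. The brightest were *Fzd1*, a WNT receptor, with a mean ratio of −0.61 (adjusted p = 0.168), *Sdc4*, a heparan sulfate proteoglycan, with 0.03 (adjusted p = 0.962), and *Fzd2*, with −0.07 (adjusted p = 0.847). The ligases and the additional ligands are given with their values already seen. *Rnf43* had signals of 1280 and 1110 in the controls of replicates 1 and 2 and of 702 and 661 with IWP-2. Its ratios of −0.86 and −0.75 passed the study's filter but not the test (limma adjusted p = 0.0922). *Znrf3* was dim, with ratios of −0.14 and −0.66 (adjusted p = 0.396). *Ndp* encodes norrin, which has been reported to bind LGR4. Its ratios were −1.26 and −1.07 (adjusted p = 0.0532). *Tnfsf11* encodes RANKL, which has also been reported to bind LGR4, and had ratios of −0.9 and −0.73 (adjusted p = 0.106). With a prior spread that follows the signal, 4 of the 25 were called lower, namely *Fzd1*, *Ndp*, *Rnf43* and *Tnfsf11*, and 0 higher, a setting under which 0.808% of all tested probes were called lower and 0.477% higher.

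*Lgr5* was set beside other canonical WNT targets, a list of 15 genes of which 13 were tested. Limma called 3 of the 13 lower, against 0.194% of all tested gene names with 1 probe each, and 0 higher, against 0.0249%, with 10 lower and 0 higher at an unadjusted p under 0.05 (5.62% and 6.67% of all tested probes). Their median log2 ratio was −0.79, and 12 of the 13 were below 0 in both arrays, where 28.1% of all tested probes were. *Sp5*, a transcription factor of the pathway, had a mean log2 ratio of −2.16 (adjusted p = 0.0237), *Axin2*, a feedback inhibitor, −1.91 (adjusted p = 0.0409), and *Tcf7*, which encodes TCF1, −1.36 (adjusted p = 0.0299). A dimmer probe of *Axin2* was also called lower (mean −1.42, limma adjusted p = 0.0331). The dimmer probe of *Tcf7* was not called (mean −0.93, limma adjusted p = 0.0792). The mean log2 ratio of *Lgr5*, −3.15, lay below that of every tested gene of the list. By the mean log2 signal over the 4 channels, the brightest of those not called were *Ccnd1* (−0.17, adjusted p = 0.545), *Myc* (−0.05, adjusted p = 0.903) and *Nkd2* (−0.3, adjusted p = 0.383). *Nkd1*, another feedback inhibitor with control signals of 3970 and 2960, had ratios of −0.96 and −0.62 (adjusted p = 0.143) and passed the study's filter. *Axin2*, *Notum*, *Tcf7*, *Tnfrsf19* and *Wif1* also passed it in the lower direction, and *Sp5*, with control signals under 100, did not. Of all probes with a control signal above 100, 0.323% passed it lower. *Wif1* had ratios of −1.6 and −1.07 (adjusted p = 0.11). The number called was 9 of 13, all lower, with a prior spread that follows the signal (0.808% of all tested probes lower). It was 0 when signals under 15 were set to 15, when all dim probes were kept and when the 4 channels were fitted as separate samples, so *Sp5*, *Axin2* and *Tcf7* were not called there.

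**Figure D4:**
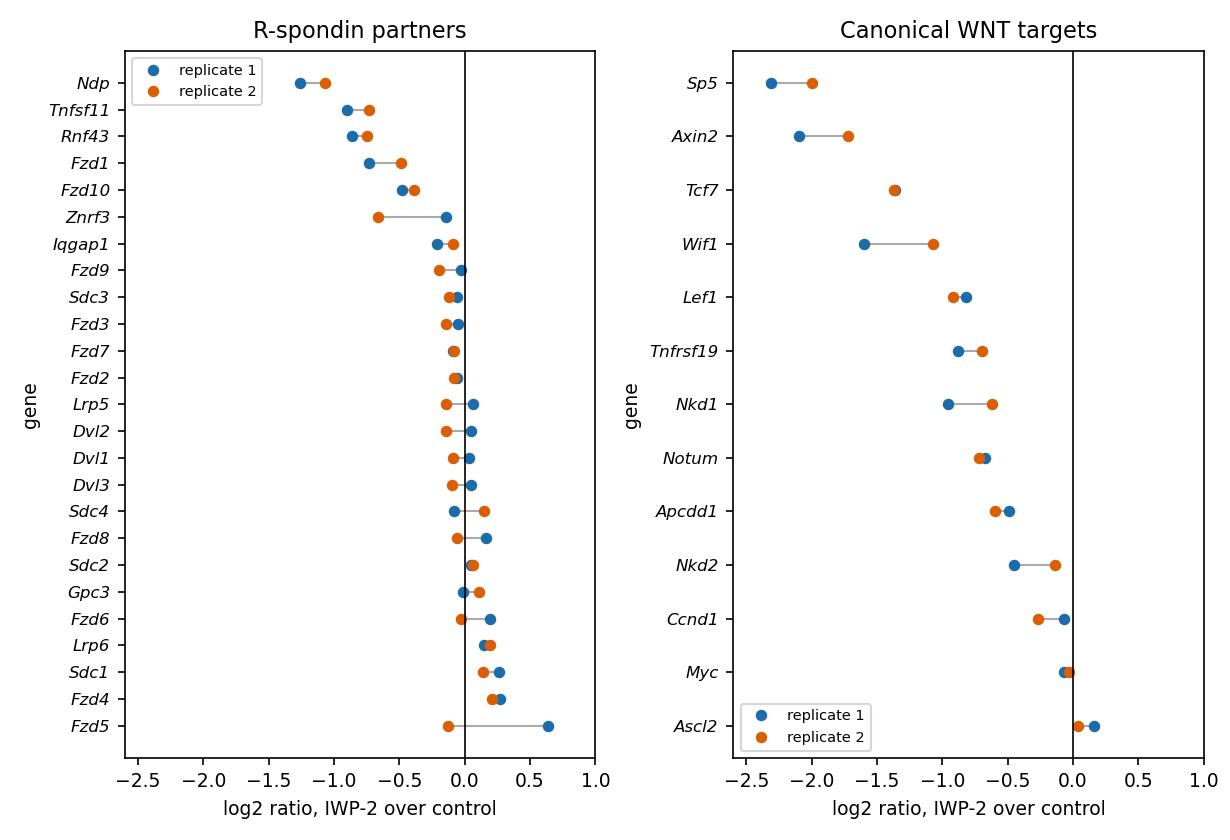
Log2 ratio of IWP-2 over control in replicate 1 (blue) and replicate 2 (orange) for the tested genes among the R-spondin partners (left) and the canonical WNT targets (right), each ordered by its mean. Most partners lie near 0, with *Ndp* at −1.26 and −1.07 the lowest, whereas 12 of the 13 WNT targets lie below 0 in both arrays (28.1% of all tested probes).

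Genes known from LGR5-positive intestinal stem cells were asked for separately. All 10 were tested, and 0 were called lower or higher, with 3 lower and 0 higher at an unadjusted p under 0.05 (5.62% and 6.67% of all tested probes) and a median of −0.16. The brightest, *Smoc2* (−0.09, adjusted p = 0.773), *Cdca7* (−0.2, adjusted p = 0.393) and *Prom1* (−0.18, adjusted p = 0.617), had ratios near 0. *Olfm4*, a secreted glycoprotein of the intestinal crypt, was named for its size. Its signal was 24.8 and 36.4 in the controls of replicates 1 and 2 and 7.87 and 4.95 with IWP-2, and its ratios of −1.66 and −2.88 did not pass the test (adjusted p = 0.141). With a prior spread that follows the signal, *Olfm4* and *Tnfrsf19* were called lower (0.808% of all tested probes lower, 0.477% higher).

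The receptors of the other LGR classes (*Fshr*, *Lhcgr*, *Tshr*, *Rxfp1* and *Rxfp2*), which bind glycoprotein hormones or relaxins, had probes but none was tested, because all were dim. Of the 19 WNT ligands, 14 were tested, and 0 were called by limma, with 6 lower and 3 higher at an unadjusted p under 0.05 (5.62% and 6.67% of all tested probes) and a median of −0.06. The brightest were *Wnt4* (−0.26, adjusted p = 0.304), *Wnt5b* (−0.29, adjusted p = 0.277) and *Wnt5a* (0.5, adjusted p = 0.191). *Wnt5a* was called higher with a prior spread that follows the signal (0.808% of all tested probes lower, 0.477% higher). *Porcn*, the target of IWP-2, had a mean ratio of −0.04 (adjusted p = 0.935), which measures its RNA and not the activity of the enzyme.

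Markers of the cell types in the pools are given beside these values. All 8 urothelial, all 7 smooth muscle and all 4 lamina propria markers were tested, as the label of ureter asks for, and 1 of 5 kidney markers was. None of the 39 tested markers of 10 cell types was called by limma, and at an unadjusted p under 0.05, 3 were lower and 9 were higher (5.62% and 6.67% of all tested probes). With a prior spread that follows the signal, *Aldh1a2* of the lamina propria was called lower and *Upk1a* of the urothelium and *Fabp4* of fat were called higher. Under that setting 0.808% of all tested probes were called lower and 0.477% higher. Urothelial markers were above 0 in both arrays for 7 of 8 genes (median 0.31), where 28.4% of all tested probes were. Their summed signal went from 93200 to 123000 with IWP-2 in replicate 1 and from 114000 to 123000 in replicate 2. The summed smooth muscle signal was 86500 and 85900 in replicate 1 and 74500 and 85700 in replicate 2. The summed lamina propria signal was 14400 and 14000 in replicate 1 and 11500 and 13700 in replicate 2. *Aldh1a2*, the lamina propria marker of the study, read 1690 in the control and 995 with IWP-2 in replicate 1 and 1460 and 1030 in replicate 2, with ratios of −0.76 and −0.5 (adjusted p = 0.168). The other lamina propria markers were not below 0 in both arrays, and the median of the 4 was 0.15. Ratios were 0.2 and 0.54 for *Foxf1*, 0.03 and 0.49 for *Ptch1* and −0.1 and 0.18 for *Bmp4*. A dimmer *Ptch1* probe had 1.13 and 0.95 (limma adjusted p = 0.0649). The part of cell type makeup in the ratios of *Lgr5* and the R-spondins was not tested.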

How the data were processed

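Total RNA of 4 pools was hybridised to 2 dye-swapped arrays. Per the file headers the deposited intensities are processed signals of Agilent Feature Extraction 12.2.0.7 (the submitters' processing notes name 10.7.3.1) with mm9 coordinates. The authors' value table holds signed fold changes, a score with 1 decimal, used as an alternative. Both of its columns had a median of 1, and their correlation with the log2 ratios (0.903 and 0.87) gave treated over control as the direction; how they were centred is not given in the sources used here. The deposited log10 ratio was compared with that of the processed red over green signals. The 2 were within 0.001 for 76.2% of all spots in replicate 1 and 76.1% in replicate 2. This comparison cannot show which dye held IWP-2, which was taken from the sample labels.

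Left out were control spots and those that carry an outlier flag in either channel (3.32% and 3.22% of the spots) and 0 spots were saturated. Loess normalization was run on each array (limma 3.58.1, R 4.3.3), the 4 spots per probe were averaged, values under 1 were set to 1 and log2 was taken. The plan had a floor of 15, which was replaced after member probes well above background were seen to lie under it. Probes with over 50% of their spots well above background in the control or the treated channel of both arrays were tested (67.8% to 69.4% of probes in a channel lay above background). Ratios of IWP-2 over control were tested against 0 with lmFit and eBayes, with Benjamini-Hochberg adjustment over all tested probes. The control and treated pool of a replicate number share an array and a sex, so the ratio pairs them by construction.

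All members with all their probes are named. From each list, with the brightest probe per gene, the genes called and the 3 others brightest on average (log2, 4 channels) are named, as are the 5 genes nearest to a member called. *Rnf43*, *Znrf3*, *Ndp*, *Tnfsf11*, *Olfm4*, *Tnfrsf19*, *Nkd1*, *Notum*, *Wif1*, *Cyp2e1*, *Ibsp*, *Aldh1a2*, *Foxf1*, *Ptch1*, *Bmp4*, *Upk1a* and *Fabp4* were added after their values were seen. Members and lists were chosen with earlier results of these data known. The steps were tested on simulated data. Alternatives covered normalization, background, floor, flags, spot summary, probe filter, prior spread, pairing and thresholds. The number of arrays limits the precision.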

Additional observations from a re-analysis of the deposited data

Results flagged for a closer look

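For *Lgr6* the arrays gave opposite signs, with a log2 ratio of −0.32 in the pools from females and 0.05 in the pools from males, a difference of −0.36. The summed signals of 4 marker lists also went opposite ways in the arrays. The log2 ratio of the sum in replicate 1 minus that in replicate 2 was −0.21 for smooth muscle, −0.29 for lamina propria, −0.21 for endothelium and −0.88 for Schwann cells and neurons, where the sum went from 5670 in the control to 3540 with IWP-2 in replicate 1 and from 4810 to 5510 in replicate 2. None of these 5 differences was tested, as there is 1 array of each sex, and sex, pool and dye orientation cannot be told apart.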

How the results depend on the processing

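*Lgr5* was lower under all alternatives tried, with a mean log2 ratio from −3.22 to −2.35, and passed the limma threshold in 10 of 13 settings with a test. The number of member probes called was 1 at the outset. It was 0 with a floor of 15 (the planned floor, replaced after seeing the data) and with no filter on dim probes. It was also 0 with no replicate block, where the 4 channels were fitted as separate samples after quantile normalization between arrays. It was 2, *Lgr5* and *Rspo3*, with a mean signal above 100 and an intensity trend together (18403 probes tested, chosen after seeing the data). Limma called 54 probes in all, 48 lower and 6 higher. The total was 273 (180 lower, 93 higher) with normexp background correction, 136 (97 and 39) with a mean signal above 100, 345 (217 and 128) with an intensity trend, 452 (231 and 221) with both of the last together and 2 with no replicate block. It was 0 with a floor of 15 (2966 at an unadjusted p under 0.05) and 0 with no filter on dim probes (2896 at an unadjusted p under 0.05). The floor of 15 gives dim probes identical values in both arrays and hence a spread of 0. The study's filter passed 72 probes, 20 with a fold of 2, and 119 to 378 when either replicate was left out. The number of member probes passing it was 1, then 0 with a control signal above 200, since the *Lgr5* controls lie at 135 and 157, and 1 to 2 when either replicate was left out, with *Rspo3* as the additional gene when replicate 1 stands alone. *Lgr4* changed sign with median centring, from −0.01 to 0.03 (adjusted p = 0.93). *Rspo1* kept its sign, with ratios from −0.46 to −0.31, as did *Rspo3*, from −0.63 to −0.31, while *Rspo2* ranged from 0 to 0.44 and *Lgr6* from −0.32 to 0.05. Where no cause is given above, the cause was not tested. Signals at or near background left *Rspo4* and the other probes of *Lgr5* and *Lgr6* without a test.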
